A study of Mus musculus with 12 samples.

Results

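The expression of 9 genes of arginine and polyamine metabolism was examined in tumour-associated macrophages (TAMs) of mice treated with picrotoxin, an antagonist of the ionotropic GABA type A receptor, or with the solvent DMSO. The genes were Arg1, Arg2, Nos2, Slc7a2, Ass1, Odc1, Srm, Sms and Sat1, which make up 9 of the 24781 rows of the count table. They were chosen by name for their enzymatic or transport roles, with earlier results of these data known. All mice were wild type, given by the study as C57BL/6J or C57BL/6N, and bore skin tumours grown from MC38, a colon adenocarcinoma line of the mouse. Injections into the peritoneum began the day before the tumour cells were given and were repeated every other day. On day 7 after inoculation, 100 CD45+CD11b+F4/80high cells were sorted from tumour for each of 6 DMSO and 6 picrotoxin libraries. The labels give neither age nor sex for a library. They call the libraries independent preparations without naming the mice. The methods of the study give each library its own mouse, whereas a figure legend counts fewer mice than libraries in a group, so n here counts libraries. The p-values therefore measure the spread between these libraries and would be too small if some shared a mouse.

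Macrophages take up arginine through cationic amino acid transporters and split its use between competing enzymes. Arginase makes ornithine and urea, whereas inducible nitric oxide synthase makes nitric oxide and citrulline, and citrulline can be turned back into arginine. Ornithine decarboxylase opens the path from ornithine to putrescine, spermidine and spermine, polyamines that bind nucleic acids and are needed for growth and for the hypusine modification of a translation factor. High arginase is known from alternatively activated and tumour macrophages, and high nitric oxide synthase from inflammatory activation.

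Arg1 was by far the most abundant of these genes, and 6 members had higher means under picrotoxin (Arg1, Arg2, Nos2, Slc7a2, Ass1 and Sat1) and 3 had lower ones (Odc1, Srm and Sms). None of the 8 members with enough molecules to be tested passed an adjusted p of 0.05 (edgeR quasi-likelihood test, Benjamini-Hochberg over 9580 genes, lowest adjusted p = 0.481), a threshold that 0.0522% of all tested genes passed. At an unadjusted p under 0.05, 3 of the 8 were higher (Arg1, Nos2 and Sat1) and 0 were lower, beside 7.72% of all tested genes in either direction, 3.67% higher and 4.05% lower. DESeq2 gave an unadjusted p under 0.05 for 1 member, Nos2, beside 4.04% of all genes. The median log2 fold change was 0.22 over the 8 members and -0.01 over all tested genes. No member had groups that did not overlap, which 37 genes (0.386%) had.

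**Figure D1:**
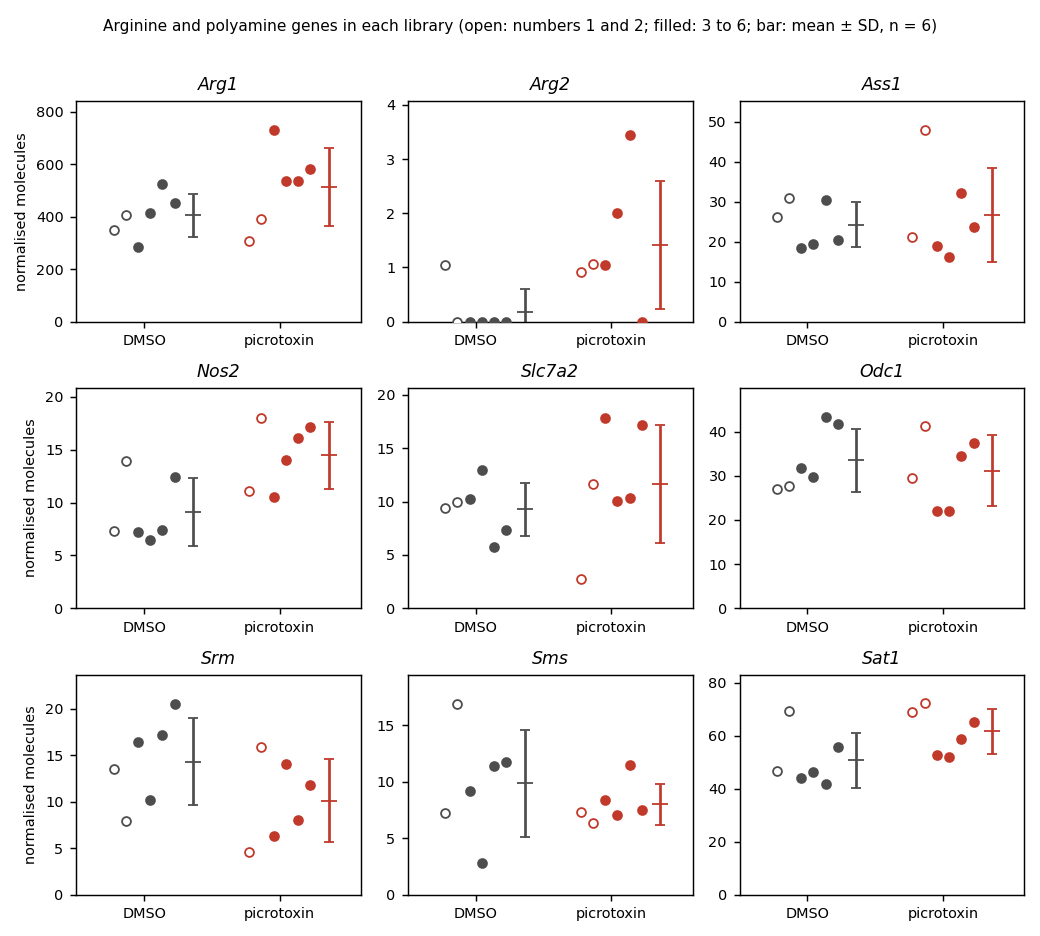
Normalised molecules of each of the 9 genes (vertical axis, each panel on its own scale from 0) in the 6 DMSO and 6 picrotoxin libraries. Each point is a library, open for libraries numbered 1 and 2 and filled for 3 to 6, and the bar is the mean ± SD (n = 6). The groups overlap in every panel. The picrotoxin libraries of Nos2 (10.5 to 18.1) and Sat1 (52.2 to 72.2) all lie above the DMSO means of 9.11 and 50.7.

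Values are molecules, that is, distinct barcodes counted per gene, divided by the size factor of the library. The libraries held 201697 to 309617 molecules, and totals did not differ beyond their spread between the groups (exact permutation test, two-sided, p = 0.156). The macrophage markers made up 0.632% to 0.918% of a DMSO library and 0.807% to 0.870% of a picrotoxin library, and all 10 of them were detected. The 12 fibroblast and matrix markers summed to 15 to 833 molecules in DMSO and 12 to 68 in picrotoxin libraries, with the highest sums in DMSO libraries 5 (833) and 3 (195). Of the 8 neutrophil markers 6 had no molecule in any library, S100a9 and Ly6g among them, and the summed list reached 10 molecules at most. The lists for B cells, T and NK cells, dendritic cells, endothelium and MC38 epithelium reached 3, 3, 7, 10 and 21 molecules. Of the 6 MC38 epithelial markers 4 had no molecule in any library (Epcam, Krt18, Krt19 and Krt20). Cdh1 gave 20 of the 21 molecules, in picrotoxin library 5. The ribosomal precursor Rn45s took a larger share of picrotoxin libraries, 12.95% ± 1.32 against 10.1% ± 2.42 (SD, n = 6; exact permutation p = 0.0368). Fewer genes had at least 1 molecule in picrotoxin libraries, 9999 ± 139 against 10400 ± 409 (exact permutation p = 0.0455; SD, n = 6). The part of these library differences in the results was not tested. Exceptions are values given without a library or row, or from a model that held a score of the matrix markers. Since 100 cells were pooled in each library, fewer cells that express a gene and less of its RNA per cell cannot be told apart.

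To set the genes beside each other, normalised molecules were divided by exon length in kilobases. On this scale Arg1 stood at 182 ± 37.1 in DMSO libraries, Sat1 at 18.3 ± 3.74, Ass1 at 10.04 ± 2.29, Odc1 at 9.86 ± 2.10 and Srm at 8.94 ± 2.92 (SD, n = 6). Nos2 followed at 2.06 ± 0.725, Sms at 1.65 ± 0.789, Slc7a2 at 1.01 ± 0.275 and Arg2 at 0.121 ± 0.297. Picrotoxin libraries kept this order of means. In DMSO libraries Ass1, Odc1 and Srm lay within each other's spread, as did Nos2 and Sms, and the SD ranges of Sms and Slc7a2 overlapped. Among the tested genes of the table Arg1 ranked number 34 of 9580 by mean molecules, not divided by length. Priming at A-rich stretches of fragmented RNA does not sample a transcript evenly, so the per-kilobase levels give only an approximate order.

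Slc7a2, the inducible cationic amino acid transporter of macrophages (CAT2), lies at chromosome 8, 40862396 to 40922308, on the plus strand (GRCm38). It ranged from 5.73 to 13.0 normalised molecules in DMSO libraries, with a median of 9.65, and from 2.76 to 17.9 in picrotoxin libraries, with a median of 11.02. The lowest and the highest library were both picrotoxin libraries, numbers 1 and 3, so one group spanned the other. The log2 fold change was 0.34 with an SE of 0.30 (edgeR adjusted p = 0.852), and the 95% interval of the ratio ran from 0.841 to 1.90. Leaving out picrotoxin library 1, the lowest, gave 0.55 (unadjusted p = 0.0486, adjusted p = 0.640), and leaving out picrotoxin library 3 gave 0.17. Of the 5 tested transport genes, 0 had an unadjusted p under 0.05 in edgeR, beside 7.72% of all tested genes (median log2 fold change -0.06). Slc3a2, the heavy chain that partners several amino acid transporters, was the most abundant of them at 50.1 ± 3.02 under DMSO and 47.3 ± 11.4 under picrotoxin (SD, n = 6). The constitutive transporter Slc7a1 had 10.02 ± 2.08 and 7.82 ± 1.49, and Slc7a7 had 7.32 ± 1.70 and 8.004 ± 2.09 normalised molecules.

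Ass1, argininosuccinate synthase, which rebuilds arginine from citrulline together with Asl, lies at chromosome 2, 31470207 to 31520672, on the plus strand. It ran from 18.4 to 30.8 normalised molecules in DMSO libraries, median 23.3, and from 16.1 to 47.8 in picrotoxin libraries, median 22.4. Picrotoxin library 2 stood above all others, while the remaining libraries of both groups shared one range. The log2 fold change was 0.14 with an SE of 0.22 (edgeR adjusted p = 0.938), and without picrotoxin library 2 it was -0.12. Asl, the lyase of the next step, had 4.51 ± 2.70 under DMSO and 6.42 ± 2.17 under picrotoxin (SD, n = 6; adjusted p = 0.797). The liver genes of the urea cycle, Otc and Cps1, and the activator-forming enzyme Nags had no molecule in any library.

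Of the members, 4 had a promoter sequence in the RefSeq table used here (GRCm38.p6): Ass1, Odc1, Sat1 and Sms. The 250 bases before the start were searched for 3 short motifs on both strands, none overlapping another in these windows: the E-box CACGTG, the interferon-gamma activated sequence TTCNNNGAA and the TATA sequence TATAAA. Of 32851 promoters of the same length, 6.02% held the E-box, 7.02% the interferon motif and 12.4% the TATA sequence. In the members, only the E-box was found, from base -36 to -31 of Ass1 and from -196 to -191 of 1 of the 2 Sms entries. These windows are printed because they hold the only matches, with the E-box in capitals, and the Sat1 window because Sat1 followed Nos2 across libraries as described further on. RefSeq and the annotation used for gene positions place the Ass1 start differently, so that the last 63 bases of its window, E-box included, lie inside the gene as positioned above. The matches describe letters and no binding was measured.
Ass1, chr2:31470020-31470269, plus strand: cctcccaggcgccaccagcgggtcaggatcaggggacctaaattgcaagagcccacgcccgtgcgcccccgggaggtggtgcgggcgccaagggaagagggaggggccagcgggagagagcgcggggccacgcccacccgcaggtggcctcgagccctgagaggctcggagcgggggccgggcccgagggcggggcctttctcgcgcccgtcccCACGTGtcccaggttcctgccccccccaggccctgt
Sms, chrX:157492288-157492537, minus strand: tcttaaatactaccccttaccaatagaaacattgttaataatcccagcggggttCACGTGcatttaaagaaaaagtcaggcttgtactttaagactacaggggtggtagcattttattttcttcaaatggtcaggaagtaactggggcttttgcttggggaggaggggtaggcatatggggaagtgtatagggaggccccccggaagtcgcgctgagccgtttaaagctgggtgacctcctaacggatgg
Sat1, chrX:155216450-155216699, minus strand, no match: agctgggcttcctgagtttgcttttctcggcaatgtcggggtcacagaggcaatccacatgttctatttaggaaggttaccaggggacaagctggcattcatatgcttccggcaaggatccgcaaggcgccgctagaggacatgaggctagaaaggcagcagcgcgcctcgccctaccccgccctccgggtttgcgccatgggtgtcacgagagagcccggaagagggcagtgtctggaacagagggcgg

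Arg1, the cytosolic arginase, lies at chromosome 10, 24915221 to 24927484, on the minus strand. In DMSO libraries it ran from 285 to 524 normalised molecules with a median of 411, and in picrotoxin libraries from 306 to 731 with a median of 537. The groups overlapped: picrotoxin libraries 1 and 2 lay below the DMSO mean of 406, and the other 4 lay above every DMSO library. Arg1 took 0.177% ± 0.0380 of the molecules of a DMSO library and 0.217% ± 0.0626 of a picrotoxin library (SD, n = 6). Picrotoxin over DMSO, the log2 fold change was 0.35 with an SE of 0.14 (edgeR unadjusted p = 0.0179, adjusted p = 0.511), a ratio of 1.27 with a 95% interval from 1.05 to 1.54. DESeq2 gave an unadjusted p of 0.114. The difference rested in part on single libraries: it was 0.25 (unadjusted p = 0.0719) without DMSO library 3, the lowest of its group, and 0.22 (unadjusted p = 0.112) without picrotoxin library 3, the highest. The SD between libraries was 4.27 times the counting error in DMSO and 6.44 times in picrotoxin libraries, so this gene varied between libraries far beyond sampling.

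Arg2, the mitochondrial arginase, lies at chromosome 12, 79130777 to 79156301, on the plus strand and was close to the limit of detection. It had 1 molecule over all DMSO libraries, in library 1, and 8 over all picrotoxin libraries, spread as 1, 1, 1, 2, 3 and 0. It was thus detected in 1 of 6 DMSO and 5 of 6 picrotoxin libraries. A count of 0 in the other 5 DMSO libraries allowed a share of up to 0.000969% to 0.00130% (3 molecules of the library total). Relative to all molecules, the picrotoxin total was 8.88 times the DMSO total with an exact interval from 1.19 to 394, which covers counting error only. Its mean of 0.794 was under the minimum of 1 and it was not tested in the main fit. With no minimum its edgeR unadjusted p was 0.0125 and its adjusted p 0.438. It shares 285 bases at 100.0% identity with a transcript of Vti1b, the gene that overlaps it on the other strand, and whether the counting used strand is not stated.

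Nos2, the inducible nitric oxide synthase, lies at chromosome 11, 78920787 to 78960254, on the plus strand. It ran from 6.49 to 13.9 normalised molecules in DMSO libraries, median 7.32, and from 10.5 to 18.1 in picrotoxin libraries, median 15.1. DMSO libraries 2 and 6 reached into the picrotoxin range, the other 4 DMSO libraries lay below it, and 6 of 6 picrotoxin libraries exceeded the DMSO mean. In edgeR the log2 fold change was 0.65 with an SE of 0.25 (edgeR unadjusted p = 0.0135, adjusted p = 0.481), a ratio of 1.57 with a 95% interval from 1.119 to 2.20. DESeq2 gave an unadjusted p of 0.0386. These values rest on 7 to 17 molecules per library, and the spread between libraries was 1.103 times the counting error in DMSO and 0.814 times in picrotoxin. Without DMSO libraries 3 and 5, which held most matrix transcripts, the log2 fold change was 0.50 (unadjusted p = 0.0770). The unadjusted p was under 0.05 in 23 of 24 alternative settings, that one excepted, and the lowest adjusted p among them was 0.290.

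Of the other nitric oxide genes, Qdpr and Gch1, which regenerate and start the synthesis of the cofactor tetrahydrobiopterin, had log2 fold changes of -0.02 and 0.05 (edgeR adjusted p = 0.998 and 0.991). Spr, which completes the cofactor, had 6.42 ± 2.36 under DMSO and 4.48 ± 1.91 under picrotoxin (SD, n = 6; adjusted p = 0.767). Pts, the enzyme between Gch1 and Spr, was singled out after its values were seen: it had 1.71 ± 1.19 and 3.80 ± 2.33 (SD, n = 6), the highest log2 fold change of the tested pathway genes at 1.04 with an SE of 0.53, from 34 molecules in all (unadjusted p = 0.0595, adjusted p = 0.678). Of the 6 tested genes of this group 1, Nos2, had an unadjusted p under 0.05, beside 7.72% of all tested genes. Nos1 had no molecule in any library.

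The ratio of Arg1 to Nos2 molecules compares the RNA of enzymes that compete for arginine. Enzyme protein and activity were not measured. The ratio was 48.1 ± 16.4 under DMSO and 37.4 ± 16.8 under picrotoxin (SD, n = 6). It ran from 29.3 to 71.2 and from 21.6 to 69.5, so the groups overlapped over most of their range. Divided by exon length the ratios were 95.3 ± 32.5 and 74.0 ± 33.2. The means of both genes were thus higher under picrotoxin, and their ratio did not separate the groups.

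Odc1, ornithine decarboxylase and the first enzyme of polyamine synthesis, lies at chromosome 12, 17544794 to 17551505, on the plus strand. It ran from 27.1 to 43.4 normalised molecules in DMSO libraries, median 30.7, and from 22.1 to 41.4 in picrotoxin libraries, median 32.0. The groups overlapped over most of their range. This gave a log2 fold change of -0.12 with an SE of 0.18 (edgeR adjusted p = 0.929), and the 95% interval of the ratio ran from 0.726 to 1.17.

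Srm, spermidine synthase, lies at chromosome 4, 148591503 to 148594993, on the plus strand. It had 7.94 to 20.5 normalised molecules in DMSO libraries, median 14.96, and 4.61 to 15.9 in picrotoxin libraries, median 9.92. Of the picrotoxin libraries 1, number 2, exceeded the DMSO mean of 14.3, and DMSO library 2 was the lowest of its group. Picrotoxin over DMSO, the log2 fold change was -0.52 with an SE of 0.27 (edgeR unadjusted p = 0.0686, adjusted p = 0.699), with a 95% interval of the ratio from 0.481 to 1.01. The unadjusted p was under 0.05 in 7 of 24 alternative settings.

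Sms, spermine synthase, lies at chromosome X, 157443855 to 157492287, on the minus strand. It had 2.78 to 16.9 normalised molecules in DMSO libraries, median 10.3, and 6.37 to 11.5 in picrotoxin libraries, median 7.44. The picrotoxin libraries all lay inside the DMSO range. In edgeR the log2 fold change was -0.31 with an SE of 0.30 (edgeR adjusted p = 0.873), and the 95% interval of the ratio ran from 0.537 to 1.22. It was -0.11 without DMSO library 2, the highest, and -0.50 without DMSO library 4, the lowest.

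With Odc1, Srm and Sms, the synthesis group holds Amd1 and Amd2, which make the decarboxylated S-adenosylmethionine that supplies the aminopropyl groups. All 5 had log2 fold changes below 0, as had 4859 of the 9580 tested genes, with a median of -0.52, and 2 of the 5 were lower at an unadjusted p under 0.05, beside 4.05% of all genes, neither with an adjusted p under 0.05. Amd1 had 8.84 ± 3.43 under DMSO and 5.39 ± 0.837 under picrotoxin (SD, n = 6; log2 fold change -0.72, SE 0.31, edgeR unadjusted p = 0.0237, adjusted p = 0.545). Amd2 had 7.61 ± 2.61 and 4.87 ± 0.960 (log2 fold change -0.66, adjusted p = 0.627). Both calls were lost with DESeq2 (unadjusted p = 0.0664 for Amd1 and 0.110 for Amd2) and with limma-voom (0.0509 and 0.0763). They were also lost in a model that held the matrix score (0.0623 and 0.151) and without DMSO library 4 (0.0805 and 0.0753). Of 23 alternatives, Amd1 kept its call in 19 and Amd2 in 10. Transcripts of Amd1 and Amd2 share 3202 bases at 99.6% identity, so their counts cannot be taken as separate measurements, and the group has 4 distinct ones. Of the genes that control Odc1 protein, the antizyme Oaz1 was abundant at 121 ± 13.7 and 109.8 ± 11.8 (SD, n = 6; adjusted p = 0.846), and the antizyme inhibitor Azin1 had 22.1 ± 4.21 and 21.9 ± 3.26 (adjusted p = 0.996).

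Sat1, the acetyltransferase that marks spermidine and spermine for back-conversion and export, lies at chromosome X, 155213132 to 155216449, on the minus strand. It ran from 41.7 to 69.5 normalised molecules in DMSO libraries, median 46.6, and from 52.2 to 72.2 in picrotoxin libraries, median 62.0. DMSO libraries 2 and 6 reached into the picrotoxin range, the same libraries as for Nos2, and 6 of 6 picrotoxin libraries exceeded the DMSO mean. This gave a log2 fold change of 0.30 with an SE of 0.14 (edgeR unadjusted p = 0.0435, adjusted p = 0.627), a ratio of 1.23 with a 95% interval from 1.01 to 1.49. DESeq2 gave an unadjusted p of 0.0790. The unadjusted p stayed under 0.05 in 10 of 24 alternative settings, and without DMSO libraries 3 and 5 the log2 fold change was 0.18 (unadjusted p = 0.239). Of the 4 tested genes of back-conversion and oxidation, Sat1 alone had an unadjusted p under 0.05, beside 7.72% of all tested genes. Smox, spermine oxidase, had 12.2 ± 2.01 under DMSO and 14.4 ± 3.56 under picrotoxin (SD, n = 6; adjusted p = 0.868), and Aldh9a1 had 17.8 ± 5.50 and 16.9 ± 4.15 (adjusted p = 0.973). Paox, the polyamine oxidase, had 3.23 ± 1.91 and 3.36 ± 2.16 (adjusted p = 0.976).

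Some of these counts may include reads from near-identical copies or from an overlapping gene. Transcripts of Odc1 shared stretches of at least 100 bases at 95% identity or more with 13 other genes, those of Sms with 11, those of Sat1 with 2 and those of Ass1 with 1, Gm5424, over 1240 bases at 99.5% identity. Slc7a2 transcripts matched 58 other genes in this way. The longest match, 475 bases at 100.0% identity, was with Gm26584, which overlaps Slc7a2 on the other strand. Arg1, Nos2 and Srm matched no other gene.

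The wider pathway was read from a list of 65 genes, the members included. Of these, 47 were tested and 11 had no molecule. At an unadjusted p under 0.05, 4 genes were higher (Arg1, Nos2, Sat1 and Gatm) and 2 lower (Amd1 and Amd2), beside the 7.72% of all tested genes, and 0 passed an adjusted p of 0.05 in edgeR. As stated above, Amd1 and Amd2 are not separate measurements. By DESeq2, 2 passed the unadjusted threshold. The median log2 fold change over the 47 genes was -0.02. Ornithine can also leave towards proline and glutamate, and Oat, the first enzyme of that route, had 17.9 ± 3.60 under DMSO and 17.3 ± 4.21 under picrotoxin (SD, n = 6; adjusted p = 0.994). Eif5a, the translation factor that receives hypusine from spermidine, had 210.1 ± 16.7 and 198 ± 24.1 (adjusted p = 0.925), and Dohh, which completes the modification, had 12.6 ± 1.86 and 9.75 ± 2.57 (adjusted p = 0.774). The lysosomal polyamine exporter Atp13a2 had 31.3 ± 6.22 and 31.6 ± 4.06 (adjusted p = 0.990). Mat2a, which supplies S-adenosylmethionine, had 37.5 ± 9.84 and 39.7 ± 4.80 (adjusted p = 0.953).

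**Figure D2:**
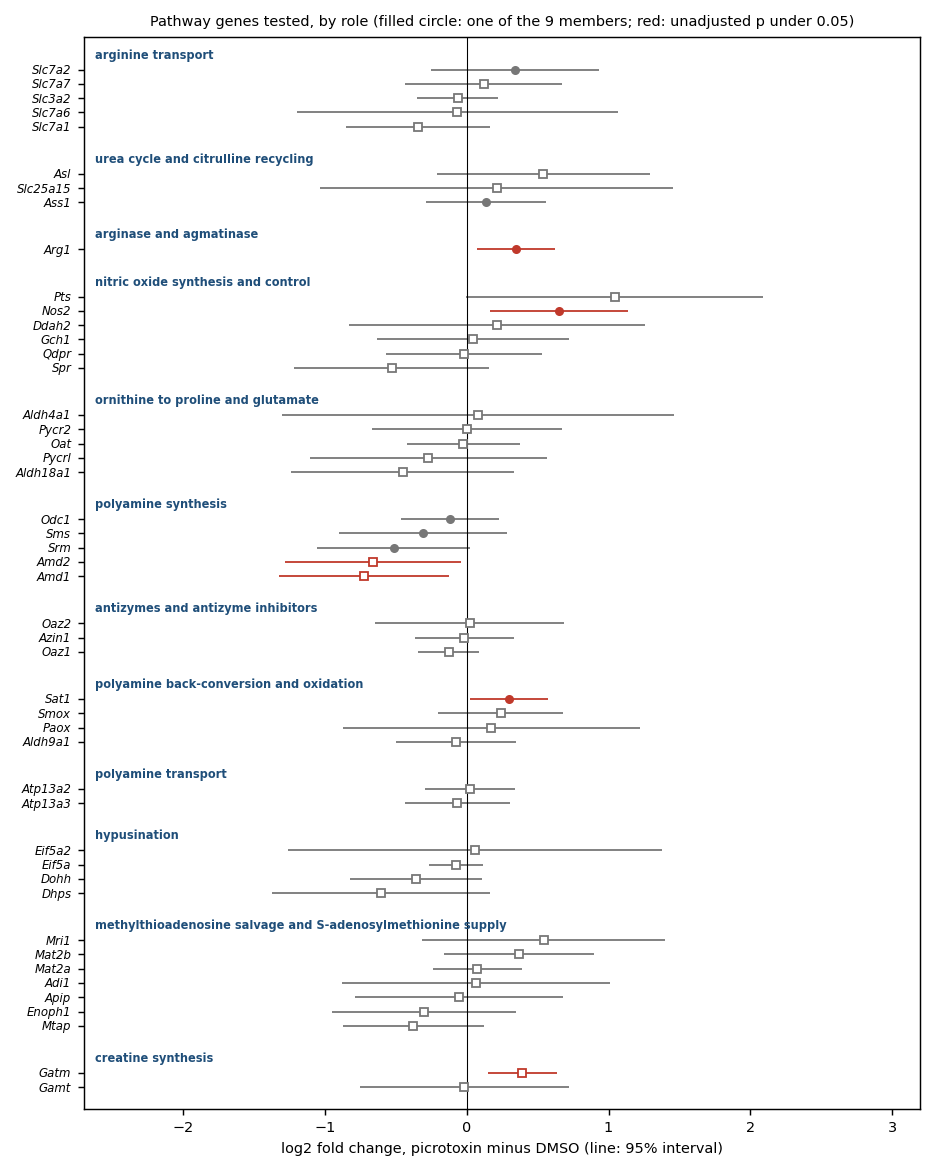
Log2 fold change of picrotoxin over DMSO (horizontal axis) for the 47 tested pathway genes, grouped by role, with 95% intervals from edgeR (n = 6 per group). Filled circles are the chosen members and open squares other pathway genes, and red marks an unadjusted p under 0.05. The 5 genes of polyamine synthesis all lie below 0 with most intervals crossing it, and Arg1, Nos2, Sat1 and Gatm lie above 0. Among those 5, Amd1 and Amd2 share near-identical sequence and are not separate measurements.

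Gatm, which transfers the amidino group of arginine to glycine in the first step of creatine synthesis and releases ornithine, was the pathway gene with the smallest p. It lies at chromosome 2, 122594467 to 122611303, on the minus strand. It ran from 134 to 230.4 normalised molecules in DMSO libraries, median 167, and from 166 to 268 in picrotoxin libraries, median 220.4. The groups overlapped through DMSO libraries 1 and 2, which were the highest of their group, and picrotoxin library 2, the lowest of its own. Picrotoxin over DMSO, the log2 fold change was 0.39 with an SE of 0.12 (edgeR unadjusted p = 0.00309, adjusted p = 0.309). DESeq2 gave an unadjusted p of 0.00557. Without DMSO libraries 3 and 5 the difference was 0.25 (unadjusted p = 0.0458, adjusted p = 0.903), and it was 0.26 once the matrix score entered the model. The partner enzyme Gamt had 4.24 ± 1.36 and 4.14 ± 1.02 (SD, n = 6; adjusted p = 0.9997).

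Libraries numbered 1 and 2 in each group stood apart from those numbered 3 to 6 over the whole table, with 99 genes (1.03%) past an adjusted p of 0.05 and 9.7% past an unadjusted p of 0.05 in a fit that held treatment. The labels name no batch, and this split was drawn from earlier results of these data. Of the members, 0 passed the adjusted and 3 the unadjusted threshold. Arg1 was lower in libraries 1 and 2 by a log2 difference of -0.44 with an SE of 0.12 (edgeR unadjusted p = 0.000851, adjusted p = 0.0670). Ass1 was higher there by 0.49 (adjusted p = 0.364) and Sat1 by 0.32 (adjusted p = 0.353). All 3 values moved with single libraries. Ass1 was 0.21 without picrotoxin library 2, and Sat1 was 0.21 without DMSO library 2. Arg1 ran from -0.56 to -0.30 when 1 of the 4 libraries numbered 1 or 2 was left out (edgeR unadjusted p from 0.000129 to 0.0211).

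The treatment difference was then read within each set of numbers. In libraries 3 to 6, Arg1 ran from 285 to 524 normalised molecules in DMSO and from 537 to 731 in picrotoxin libraries (n = 4 each), with no overlap. In libraries 1 and 2 the means were 379 in DMSO and 348 in picrotoxin. Arg1 was 0.52 higher on the log2 scale in picrotoxin libraries 3 to 6, with an SE of 0.13 and an edgeR adjusted p of 0.0421. Gatm showed the same arrangement, with 134 to 169 in DMSO and 209 to 268 in picrotoxin libraries 3 to 6, and was 0.68 higher with an SE of 0.12 and an adjusted p of 0.00135. With all 12 libraries the edgeR adjusted p was 0.511 for Arg1 and 0.309 for Gatm. Because the split was drawn from earlier results of these data, p-values that use it cannot be taken at face value. Over 24 alternatives the adjusted p ran from 0.0421 to 0.811 for Arg1 and from 0.00135 to 0.903 for Gatm. In this subset 0.497% of the 9666 tested genes had an adjusted p under 0.05, and 4.74% of genes had groups that did not overlap. Of the members Arg1 alone passed the adjusted threshold. At an unadjusted p under 0.05 they were Arg1, Nos2, Slc7a2 and Srm, beside 9.61% of all genes there. The difference of the treatment effect between the sets of numbers was tested as an interaction, which 0 of 9580 genes passed at an adjusted p of 0.05 and 5.8% at an unadjusted p under 0.05. For Arg1 it was -0.65 on the log2 scale (unadjusted p = 0.00429, adjusted p = 0.653), the only member under 0.05 before adjustment, and for Gatm the unadjusted p was 0.000114 and the adjusted p 0.108. Nos2 had means of 8.37 and 14.5 in libraries 3 to 6, a log2 fold change of 0.76 (adjusted p = 0.389).

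**Figure D3:**
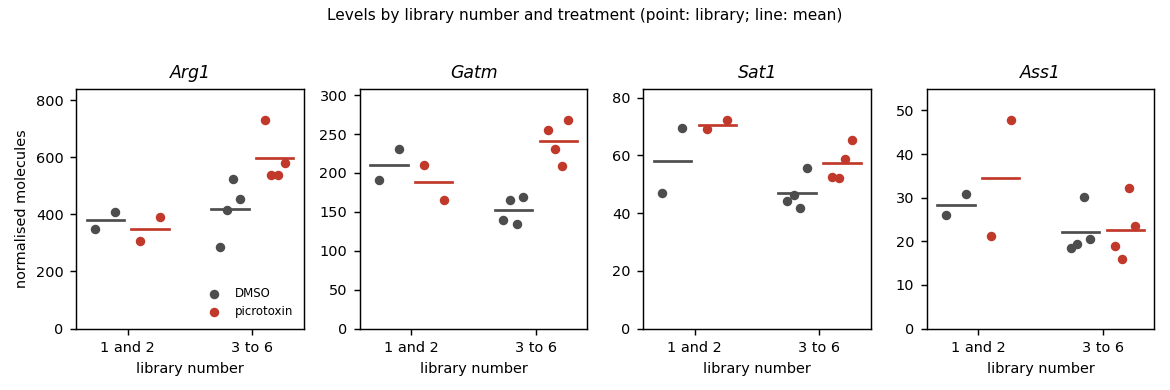
Normalised molecules of Arg1, Gatm, Sat1 and Ass1 (vertical axes from 0) in libraries numbered 1 and 2 and those numbered 3 to 6, DMSO in grey and picrotoxin in red. Each point is a library and each line a mean. The picrotoxin libraries of Arg1 (537 to 731) and Gatm (209 to 268) numbered 3 to 6 lie above all DMSO libraries of those numbers, whereas in libraries 1 and 2 they do not.

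Relations between members across the 12 libraries were computed for 7 pairs on log2 CPM, and none had an adjusted p under 0.05 by permutation (lowest adjusted p = 0.321 for Pearson's r). For Arg1 and Nos2 the correlation was r = 0.36 (permutation p = 0.248, adjusted p = 0.434) and rho = 0.31 (p = 0.332, adjusted p = 0.581). Without the 2 libraries farthest from the Arg1 median r was 0.34, and it was 0.11 on residuals from the group means. For Arg1 and the transporter Slc7a2 r was 0.54 (permutation p = 0.0710, adjusted p = 0.321) and rho 0.47 (p = 0.127, adjusted p = 0.297), and r was 0.53 without the 2 farthest libraries. Within DMSO libraries the same pair had r = -0.60 and within picrotoxin libraries r = 0.86 on log2 normalised molecules (n = 6 each). For the consecutive enzymes Odc1 and Srm r was 0.51 (permutation p = 0.0917, adjusted p = 0.321) and rho 0.59 (p = 0.0496, adjusted p = 0.297), and r was 0.36 without the 2 farthest libraries.

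The genes most like Nos2 across the 12 libraries, by Pearson's r of log2 CPM among 3740 genes with a mean of at least 10, were Tnfrsf1b (0.94), Fam111a (0.86), Tec (0.85) and Sat1 (0.83). Sat1, itself a member, thus ranked number 4, whereas Arg1 ranked number 691. Tnfrsf1b encodes a receptor for TNF. Within DMSO libraries Nos2 and Sat1 had r = 0.91 and within picrotoxin libraries r = 0.40, and Nos2 and Tnfrsf1b had r = 0.93 and r = 0.83 (n = 6 each). The genes most like Arg1 were Cstb (0.91), a cathepsin inhibitor, Ahnak (0.85), Gda (0.83), Dars (0.83) and Nfic (0.83), and those with the lowest r were Cdk2ap1 (-0.87), Ube2v1 (-0.87) and the histone gene H2afz (-0.85). Of the members, Slc7a2 ranked number 202 and Nos2 number 539 in likeness to Arg1. These are descriptions: the points share libraries, depth and composition, the highest of 3740 correlations are high by selection, and Nos2 rests on few molecules.

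**Figure D4:**
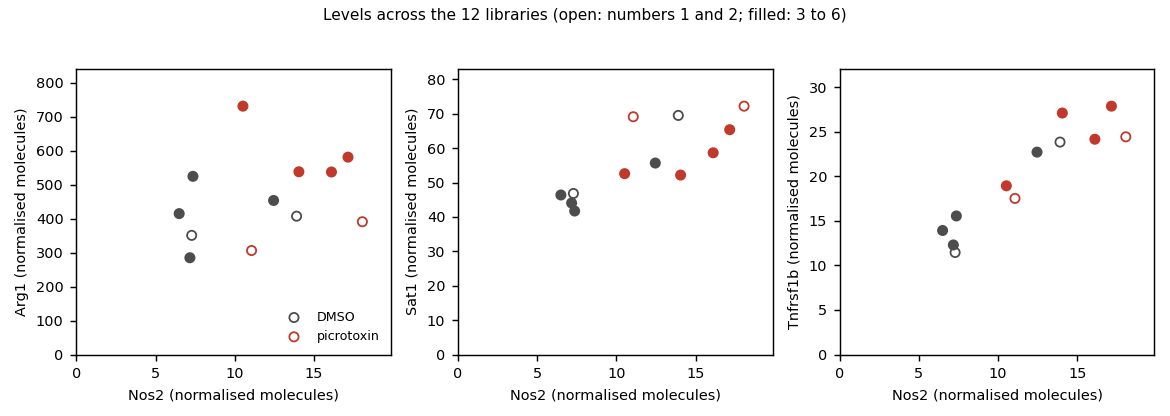
Arg1, Sat1 and Tnfrsf1b (vertical axes) against Nos2 (horizontal axes) in normalised molecules, 1 point per library, DMSO in grey and picrotoxin in red, open for libraries numbered 1 and 2. Arg1 spreads widely at any Nos2 level (r = 0.36 on log2 CPM, n = 12), while Sat1 (0.83) and Tnfrsf1b (0.94) are higher in libraries with more Nos2, for Sat1 less closely within the picrotoxin group (r = 0.40, n = 6) than within DMSO (r = 0.91, n = 6).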

How the data were processed

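Libraries of 100 sorted macrophages were made by the authors with an oligo-dT primer carrying a molecular barcode after heat fragmentation, mapped with STAR to mm10 and annotated with refFlat, per the labels and the methods of the study. The deposited values are raw counts of molecular barcodes per gene symbol, whole numbers with a different total in each library. How multi-mapped reads, strand and barcode errors were handled is not given in the sources used here. Spike-in RNA was added by the authors, and the table held 0 spike-in rows.

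Samples were grouped by the labels, 6 DMSO and 6 picrotoxin libraries. Totals of 201697 to 309617 molecules limit precision for genes with few molecules, and intervals and limits for a count of 0 cover counting error only. Genes with a mean normalised count above 1 (counts divided by DESeq2 size factors) were tested with the quasi-likelihood test of edgeR 4.0.16 (TMM, Benjamini-Hochberg over all tested genes) in R 4.3.3. The standard error was derived from the log2 fold change and the F statistic. Alternatives were DESeq2 1.42.0, whose missing adjusted p-values were left missing, limma-voom (limma 3.58.1), other scalings and filters, a replicate block, terms for library number or matrix transcripts, and leaving out libraries. Scripts were tested on simulated data. All 30 within-group pairings of libraries differed by more than counting noise (chi-square per degree of freedom 1.23 to 3.15), so none was taken as a library deposited again. Whether any came from the same mouse cannot be read from this.

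The members, gene lists and tests were chosen with earlier results of these data known. Named genes were the 9 members, up to 3 most abundant other genes of each pathway group, pathway genes with an unadjusted p under 0.05, and the 5 most and 3 least correlated with Arg1 and the 5 most correlated with Nos2. The result of 1 gene under this rule is not reported here. Pts and genes given as having no molecule were named after their values were seen. Positions are from GENCODE M21 (GRCm38). Promoters are from RefSeq. Correlations used log2 CPM with a prior count of 2 and permutation p-values.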

Additional observations from a re-analysis of the deposited data

Results flagged for a closer look

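In the 18 sets of 6 libraries formed by the 9 genes and both treatments, 1 library stood far from the rest of its group by Dixon's test, and chance gives about 1 in 20 such sets (0.9 here). It was Arg2 in DMSO library 1, at 1.04 normalised molecules against 0 in the other 5 DMSO libraries. This value is a single molecule.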

How the results depend on the processing

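Of all genes, 5 passed an adjusted p of 0.05, and 3 did with limma-voom, 14 with library totals alone, 81 with no filter, 27 with library number as a term, 48 in libraries 3 to 6, 0 with the matrix transcript score as a covariate (557 at an unadjusted p under 0.05), 12 without the Rn45s row and 1 without DMSO libraries 3 and 5, an alternative chosen after seeing the data. It ran from 0 to 25 with 1 library left out. The 740 genes with an unadjusted p under 0.05 became 387 with DESeq2 and 397 of 3741 tested with a mean above 10. They were 1024 of 13815 tested with no filter and 511 without DMSO libraries 3 and 5. Library totals alone gave 746, the fit without Rn45s 739, a replicate block 742 and leaving out 1 library 609 to 831. The share of the genes past this threshold that were higher was 47.6% in the main fit, 29.5% with library totals alone and 39.2% without Rn45s. Of the members, 1 passed with DESeq2 (Nos2), 5 with no filter, 1 without DMSO libraries 3 and 5 (Arg1) and from 1 to 4 with 1 library left out, the lowest without DMSO library 3. With library totals alone 3 passed, Arg1 and Nos2 higher and Srm lower, while Sat1 did not. Without the Rn45s row 2 passed, both higher. The pathway count of 6 was 2 with DESeq2, 3 with a mean above 10, 3 without DMSO libraries 3 and 5 and from 4 to 7 with 1 library left out. That count of 6 takes Amd1 and Amd2 as 2 genes. For library number, the 3 members became 1 to 3. The replicate numbers were not taken as pairs in the main fit. Of 6 pairs of the same number 1 correlated above 0.1 (-0.00498 to 0.126). Their mean was 0.053, against -0.011 for the other pairs of a DMSO and a picrotoxin library. A replicate block gave 43 genes with an adjusted p under 0.05, 3 members and 5 pathway genes at an unadjusted p under 0.05. The log2 fold change of Odc1 turned to 0.017 with the matrix score. That of Ass1 ran from -0.12 (without picrotoxin library 2) to 0.25 with 1 library left out. The relation of Arg1 and Odc1 turned to r = 0.22 without the 2 farthest libraries. Of the differences between library numbers, with 1 library left out, Nos2 ran from -0.051 to 0.33, Odc1 from -0.24 to 0.039 and Sms from -0.29 to 0.31. The causes were not tested. Alternative log2 fold changes were computed for the tested members, Gatm, Amd1 and Amd2. Of these, 215 kept direction and side of the unadjusted threshold, 35 lost a call, 9 gained one and 2 reversed direction. The 215 include refits of Ass1, Odc1 and Sms, which passed that threshold in no setting. Depth limits Arg2, Nos2, Slc7a2, Srm and Sms.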
